A study of Rattus norvegicus with 8 samples.

Results

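Marker genes of blood vessels were followed in the stellate ganglion of normotensive and hypertensive rats. The 9 RefSeq transcript records were chosen by accession as commonly used markers, 4 for endothelial cells (Pecam1 NM_031591, Kdr NM_013062, Flt1 NM_019306 and Eng NM_001010968) and 5 for the mural cells of the vessel wall, that is smooth muscle cells and pericytes (Acta2 NM_031004, Tagln NM_031549, Cnn1 NM_031747, Des NM_022531 and Pdgfrb NM_031525). All 9 were found among the 18314 records of the files, and all 9 were among the 13659 records with enough reads to be tested.

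RNA sequencing was carried out on the right stellate ganglion of male rats aged 16 weeks, 4 from the spontaneously hypertensive rat strain (SHR) and 4 Wistar controls, with 1 library per rat. SHR is an inbred strain that becomes hypertensive without treatment, and Wistar is an outbred normotensive stock, so the comparison holds every genetic difference between the strains as well as the difference in blood pressure. No rat was treated. The ganglion was cleaned and its sheath removed before RNA extraction, and what was left holds neurons, glia, connective tissue and vessels in unknown shares.

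Endothelial cells line every vessel, and in sympathetic ganglia they form a dense capillary bed around the neurons. Larger vessels are wrapped by smooth muscle cells, which hold contractile proteins, and capillaries by pericytes, which are recruited when endothelial PDGF-B binds the receptor encoded by Pdgfrb. Several of these markers are not restricted to vessels: Pdgfrb and Tagln are also made by fibroblasts, and Des also by striated muscle.

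Values after ± are SDs over the 4 rats of a strain (n = 4). Estimated counts summed to between 25820299 and 35509074 per library. The sympathetic identity of the tissue was plain in both strains, with a mean of 5777 TPM, a transcript's share of all transcripts scaled to a fixed total, in Wistar and 4753 in SHR for Dbh, the enzyme that makes noradrenaline. Sums over the macrophage and fibroblast marker lists were lowest in SHR rats 3 and 4. The macrophage list summed to 1603 normalised counts in SHR rat 3 and 2100 in SHR rat 4, against 3637 to 7931 in the other 6 rats, and the fibroblast list to 22926 and 34372, against 37426 to 73777. Fold changes and correlations that turned on these 2 libraries are also given without them.

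TPM divides by transcript length, so levels of different genes can be set side by side on that scale. Tagln was the most abundant member, with a mean TPM of 98.1 ± 32.2 in Wistar rats and 64.6 ± 54.6 in SHR, and its mean over all rats stood at the 90.9 percentile of all 18314 records. Pecam1 followed at the 67.4 percentile, with 10.5 ± 3.30 TPM in Wistar and 8.03 ± 1.01 TPM in SHR. Eng, Pdgfrb and Acta2 lay near the middle of all records, at the 54.5, 49.98 and 49.7 percentiles, and their mean TPM ranged from 2.10 to 4.13 across genes and strains. Kdr, Des, the member record of Flt1 and Cnn1 were low, at the 35.5, 34.3, 32.8 and 27.1 percentiles, and none of these records reached a mean of 1 TPM in either strain. Flt1 has a further record, described below, and both records together had a mean of 1.62 ± 0.194 TPM in Wistar and 2.73 ± 0.676 TPM in SHR. In each rat Tagln was above Pecam1, although the ranges over the 8 rats overlapped (13.6 to 121.0 and 7.47 to 15.4 TPM), and Pecam1 lay above Eng (2.198 to 6.54 TPM) without overlap. Within the low group the ranges of TPM over the rats overlapped between neighbours in this order, and the same held for Eng, Pdgfrb and Acta2.

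Pecam1 encodes an adhesion molecule at the junctions between endothelial cells. Its normalised count, that is the estimated count scaled between libraries, was 754, 783, 1259 and 746 in Wistar rats 1 to 4 and 849, 689, 576 and 664 in SHR rats 1 to 4. Wistar rat 3 stood well above the other 7 rats, and the strains overlapped. The log2 fold change, SHR over Wistar here and throughout, was -0.35 with a 95% interval from -0.78 to 0.08, and the record did not pass edgeR's quasi-likelihood test at a Benjamini-Hochberg adjusted p under 0.05 (adjusted p = 0.393). On the log2(TPM + 0.1) scale the difference was -0.34 (two-sided exact permutation test, p = 0.114). Leaving out Wistar rat 3 brought the log2 fold change to -0.12 (edgeR's quasi-likelihood test, Benjamini-Hochberg adjusted p = 0.794).

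Eng encodes endoglin, a co-receptor for ligands of the TGF-beta family on endothelial cells. Normalised counts were 184, 266, 248.6 and 340.1 in the Wistar rats and 547, 252, 299 and 232 in the SHR. A single SHR, rat 1, was high, and the other 3 SHR lay inside the Wistar range. Its log2 fold change of 0.36 (95% interval -0.29 to 1.003) did not pass edgeR's quasi-likelihood test (Benjamini-Hochberg adjusted p = 0.563), and it was 0.0069 when SHR rat 1 was left out.

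Kdr and Flt1 encode the VEGF receptors 2 and 1, the first the main signalling receptor for VEGF-A and the second a tight binder that also takes up VEGF-B and placental growth factor. For Kdr the normalised counts were 109, 77.7, 134 and 73.1 in the Wistar rats and 144, 149, 111 and 137 in the SHR. In the SHR, 3 of 4 rats were above every Wistar rat, and SHR rat 3 fell within the Wistar range. Kdr had a log2 fold change of 0.46 (95% interval -0.07 to 0.98), which did not pass edgeR's quasi-likelihood test (Benjamini-Hochberg adjusted p = 0.358). In TPM the SHR values of Kdr were close together, at 0.869 ± 0.046 against 0.642 ± 0.195 in Wistar, and the two-sided exact permutation test gave p = 0.143.

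Flt1 was the member that passed the test. Its record NM_019306 had normalised counts of 48.0, 58.6, 75.8 and 76.9 in the Wistar rats and 158, 109, 189 and 137 in the SHR. All 4 SHR lay above all 4 Wistar rats. The log2 fold change was 1.19 with a standard error of 0.245, a 2.29-fold higher level (95% interval 1.57-fold to 3.34-fold), and edgeR's quasi-likelihood test gave a Benjamini-Hochberg adjusted p of 0.0298. In TPM the means were 0.355 ± 0.086 in Wistar and 0.814 ± 0.246 in SHR, with a two-sided exact permutation p of 0.0286, the smallest that 4 rats against 4 can give. The call rested on nearly every library. Left out singly, SHR rat 2 was the one rat whose absence kept it (adjusted p = 0.0331). Without Wistar rats 1, 2, 3 and 4 in turn the adjusted p of edgeR's quasi-likelihood test was 0.0747, 0.1102, 0.0669 and 0.0581, and without SHR rats 1, 3 and 4 it was 0.0559, 0.0793 and 0.0753. Its size stayed between 1.06 and 1.31 in these 8 fits, and it was 1.05 without both SHR rats 3 and 4 (adjusted p = 0.156).

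A second Flt1 record, NM_001309381, overlaps the first in sequence, and the estimated counts of both were not whole numbers in 8 of 8 rats, which shows that Salmon divided shared reads between them. The records are 6848 and 6155 bases long, and how their reads were split is uncertain. The second record had normalised counts of 180, 191, 199.6 and 162 in the Wistar rats and 256, 252, 334 and 266 in the SHR, again with no overlap. Its log2 fold change was 0.60 (standard error 0.157) and it did not pass edgeR's quasi-likelihood test (Benjamini-Hochberg adjusted p = 0.0827). Summed over both records, which removes the split, the normalised count of Flt1 was 248 ± 20.3 in the controls and 425 ± 69.2 in SHR. For the sum the log2 fold change was 0.79 (95% interval 0.44 to 1.13), past the threshold of edgeR's quasi-likelihood test (Benjamini-Hochberg adjusted p = 0.0219). NM_019306 held 17.6%, 19.6%, 23.1% and 27.1% of the Flt1 TPM in the Wistar rats and 32.7%, 25.7%, 30.8% and 29.1% in the SHR. These shares overlapped between the strains, and the difference of means, 7.77 percentage points, had a two-sided exact permutation p of 0.0571.

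**Figure D1:**
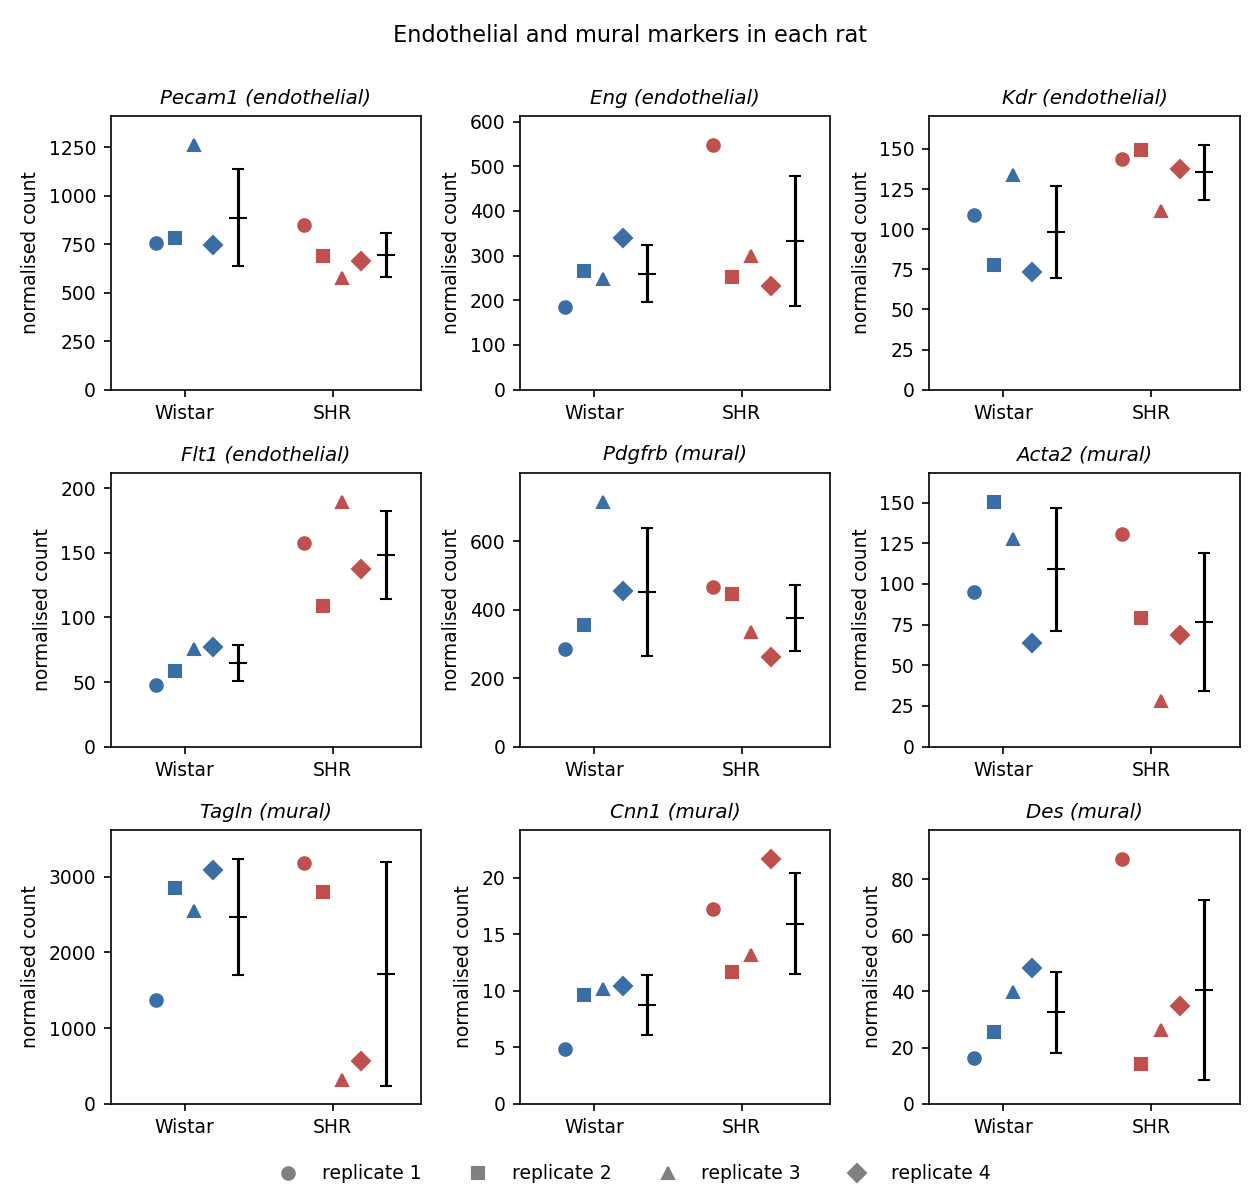
Normalised count of each of the 9 members (vertical axes, from 0) in the 4 Wistar rats (blue) and the 4 SHR (red). The marker shape gives the replicate number, for which no pairing of rats is stated, and the bar at the right of each group gives the mean ± SD. Flt1 and Cnn1 are the panels in which every SHR lies above every Wistar rat, and in the Tagln panel SHR rats 3 and 4, at 314 and 565, lie far below the other 6 rats.

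The stretches around the start sites of Flt1 and its relative Kdr, and of the contractile genes Acta2 and Cnn1, whose strain differences had opposite signs, are shown for the sequence in which regulators of endothelial and muscle genes could bind. They run from 250 bases before the start to 50 after it, 5′ to 3′ on the gene's strand, and come from RefSeq on the GRCr8 assembly. Capitals mark, on either strand, the core of ETS factor sites (letters GGAA), that of an Sp1 site (letters GGGCGG) and the TATA box (letters TATAAA).
Flt1, chr12:12333180-12333479, plus strand: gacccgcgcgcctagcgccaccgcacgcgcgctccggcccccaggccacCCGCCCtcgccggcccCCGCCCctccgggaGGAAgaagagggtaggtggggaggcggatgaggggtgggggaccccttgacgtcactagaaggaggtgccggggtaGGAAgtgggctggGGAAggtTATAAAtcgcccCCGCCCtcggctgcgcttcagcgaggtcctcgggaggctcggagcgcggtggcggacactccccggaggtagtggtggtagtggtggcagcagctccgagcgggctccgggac
Kdr, chr14:32571813-32572112, plus strand: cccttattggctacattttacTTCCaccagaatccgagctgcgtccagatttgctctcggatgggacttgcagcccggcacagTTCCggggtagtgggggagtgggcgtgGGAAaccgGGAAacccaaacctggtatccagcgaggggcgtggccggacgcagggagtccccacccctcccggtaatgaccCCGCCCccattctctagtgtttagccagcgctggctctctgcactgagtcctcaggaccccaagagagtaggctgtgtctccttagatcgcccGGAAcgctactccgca
Acta2, chr1:241172454-241172753, minus strand: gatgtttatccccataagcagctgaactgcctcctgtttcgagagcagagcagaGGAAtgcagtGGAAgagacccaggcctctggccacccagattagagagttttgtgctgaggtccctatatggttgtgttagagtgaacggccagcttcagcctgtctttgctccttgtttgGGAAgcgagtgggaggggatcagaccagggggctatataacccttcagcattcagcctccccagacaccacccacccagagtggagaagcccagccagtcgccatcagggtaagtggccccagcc
Cnn1, chr8:28908187-28908486, plus strand: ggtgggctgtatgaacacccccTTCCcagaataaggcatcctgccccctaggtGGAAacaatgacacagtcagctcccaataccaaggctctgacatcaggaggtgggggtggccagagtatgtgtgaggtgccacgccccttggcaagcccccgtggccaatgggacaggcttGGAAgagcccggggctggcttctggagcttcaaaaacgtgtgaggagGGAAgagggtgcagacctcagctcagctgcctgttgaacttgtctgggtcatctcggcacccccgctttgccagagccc
The Flt1 stretch holds 3 ETS cores, 3 Sp1 cores and 1 match to the letters TATAAA, from 75 to 70 bases before the start. That of Kdr holds 5 ETS cores and 1 Sp1 core. The Acta2 stretch has 3 ETS cores and that of Cnn1 has 4, with no match to GGGCGG or TATAAA. Other spellings of a TATA box, such as the letters tatataa in the Acta2 stretch, were not searched. None of the matches marked in capitals overlap each other. The CArG box, the site bound by serum response factor in contractile genes, was searched by its consensus on both strands. No exact match was found in these 4 windows, while matches with 1 letter off occurred at 2 places in the Acta2 stretch and 1 in that of Kdr, and at 0 in those of Flt1 and Cnn1. Of the 33469 promoters of the same length in the table, 95.8% hold the ETS core, 33.1% the Sp1 core, 14.2% the letters TATAAA and 1.64% a CArG box, and 20.15% hold a stretch 1 letter off the CArG consensus.

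Pdgfrb, the PDGF-B receptor of pericytes and fibroblasts, had normalised counts of 286, 355, 714 and 453 in the Wistar rats and 466, 445, 335 and 261 in the SHR. Wistar rat 3 was the highest for Pdgfrb, as it was for Pecam1, and the strains overlapped. A log2 fold change of -0.26 (95% interval -0.90 to 0.38) did not pass edgeR's quasi-likelihood test (Benjamini-Hochberg adjusted p = 0.681), and the sign turned when Wistar rat 3 was left out (0.055) and when SHR rats 3 and 4 were left out together (0.015).

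Acta2 encodes smooth muscle alpha-actin, the main actin of vascular smooth muscle. In the Wistar rats its normalised counts were 95.1, 150.2, 128 and 63.6, and in the SHR 131, 79.1, 28.2 and 68.6. SHR rat 3 had the lowest value, and 3 of the 4 SHR lay within the Wistar range. A log2 fold change of -0.51 (95% interval -1.46 to 0.44) did not pass edgeR's quasi-likelihood test (Benjamini-Hochberg adjusted p = 0.573). It was -0.22 without SHR rat 3, -0.90 without SHR rat 1, -0.31 without Wistar rat 2 and -0.041 without SHR rats 3 and 4 together, none of which passed. The estimated counts of Acta2 were not whole in 4 rats, so that some of its reads were shared with another record.

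Tagln encodes transgelin, an actin-binding protein of smooth muscle and of activated fibroblasts, and it varied more between rats than any other member. Its normalised counts were 1368, 2858, 2550 and 3090 in the Wistar rats and 3187, 2799, 314 and 565 in the SHR. The SHR fell into 2 rats near the top of the Wistar range or above it and 2 rats, 3 and 4, below all Wistar rats, and the highest rat had 10.1 times the count of the lowest. Accordingly the log2 fold change of -0.53 had a wide 95% interval, from -1.93 to 0.88, and did not pass edgeR's quasi-likelihood test (Benjamini-Hochberg adjusted p = 0.713). Without SHR rats 3 and 4 it was 0.29 (adjusted p = 0.724). In these 2 rats the macrophage and fibroblast sums were low as well, as given above, and the blood list, which is mostly haemoglobin, summed to 5021 in SHR rat 3 and 27264 in SHR rat 4 against 35170 to 115940 in the other 6. Their part in the Tagln values was not tested. In bulk tissue, fewer cells of a type and less RNA per cell cannot be told apart.

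Cnn1 encodes calponin 1, a regulator of contraction found in differentiated smooth muscle. It rested on few reads, with estimated counts of 5, 9, 11 and 11 in the Wistar rats and 17, 9, 14 and 23 in the SHR. The exact 95% Poisson interval, which covers counting error only, ran from 1.62 to 11.7 for the lowest of these and from 14.6 to 34.5 for the highest. After scaling, the values were 4.80, 9.58, 10.2 and 10.4 against 17.2, 11.7, 13.2 and 21.6, so that all SHR lay above all Wistar rats. The change, 0.86 on the log2 scale (95% interval -0.11 to 1.83), did not pass edgeR's quasi-likelihood test over all records (Benjamini-Hochberg adjusted p = 0.349). In TPM, 0.239 ± 0.077 in Wistar against 0.430 ± 0.119 in SHR, the two-sided exact permutation test gave its smallest possible value, p = 0.0286.

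Des encodes desmin, the intermediate filament of muscle cells and pericytes. Counts after scaling were 16.3, 25.6, 39.7 and 48.4 in the Wistar rats and 87.1, 14.3, 26.3 and 34.8 in the SHR. SHR rat 1 was the highest, as it was for Eng, and SHR rat 2 the lowest. Its log2 fold change of 0.32 (95% interval -0.91 to 1.56) did not pass edgeR's quasi-likelihood test (Benjamini-Hochberg adjusted p = 0.808), and without SHR rat 1 it was -0.37. The striated muscle list, whose cells also make desmin, summed to 2019 to 2669 normalised counts in Wistar and 2473 to 2977 in SHR. Most of this sum was Acta1, at 1859 ± 234 in Wistar and 2085 ± 85.6 in SHR. Of the 8 tested records of the list, 5 had a log2 fold change above 0. Without overlap of the strains, Myl11 was higher in SHR and Myh2 and Myl1 were lower, and none of them passed. The part of striated muscle in the Des values was not tested.

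**Figure D2:**
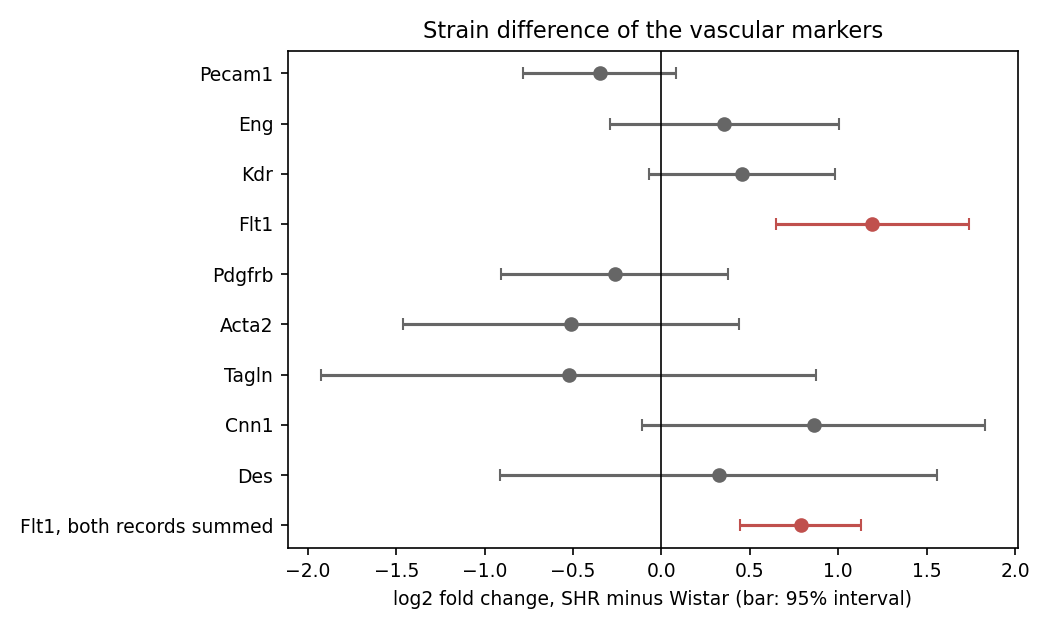
Log2 fold change, SHR minus Wistar (horizontal axis), of the 9 members and of the sum of both Flt1 records, with 95% intervals from edgeR; red marks an adjusted p under 0.05. The intervals of Flt1 (0.65 to 1.74) and of its sum (0.44 to 1.13) lie above 0, and those of the other 8 members include it.

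Of the 9 members, 1 passed edgeR's quasi-likelihood test higher in SHR and 0 lower, where 2.85% of all records tested passed it in either direction (1.16% higher and 1.69% lower). The strains did not overlap for 2 of the 9, both with SHR higher, where this held for 10.6% of all records (4.63% with SHR higher and 5.96% with SHR lower). The median log2 fold change was 0.41 over the 4 endothelial members and -0.26 over the 5 mural members, against 0.01 over all records. Without regard to sign, the median change of the members was 0.46, against 0.21 over all records. Fold changes of both signs occurred in each class, below 0 for Pecam1 and above 0 for the other 3 endothelial records, and above 0 for Cnn1 and Des and below 0 for the other 3 mural ones.

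Co-variation of the markers across the rats, read as a sign of how much vessel each ganglion held, was examined with Pearson correlations of log2 library-scaled counts (CPM) over the 8 rats for the 36 pairs of members. The median r was 0.10 over the 6 endothelial pairs, 0.30 over the 10 mural pairs and 0.33 over the 20 pairs between the classes. In 27 of the 36 pairs r was above 0, and in 11 of them, or 30.6%, it was at least 0.5. Among all 93277311 pairs of records tested, the median r was 0.00 and 14.3% reached 0.5. The pairs share the same 8 rats, so they are not independent of each other. With the strain means removed, the median over all 36 pairs was 0.40, r was above 0 in 10 of 10 mural pairs, and 11 pairs again reached 0.5, against 16.4% of all pairs of records.

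Of the 36 pairs, 4 had an unadjusted exact permutation p under 0.05 for Pearson's r, 2 had one for Spearman's rho, and 0 passed after Benjamini-Hochberg adjustment over the 36 relations. The strongest was Flt1 with Cnn1, the pair of genes that did not overlap between the strains (n = 8 rats, r = 0.82, exact permutation p = 0.0082, adjusted p = 0.260, rho = 0.90, exact permutation p = 0.0046, adjusted p = 0.164). It remained at r = 0.88 without the 2 rats farthest from the median of Flt1, and was 0.53 with the strain means removed (exact permutation within strains, p = 0.248, adjusted p = 0.652). Eng and Des had r = 0.82 and rho = 0.57 (exact permutation p = 0.0144 and 0.151, adjusted p = 0.260 and 0.556), and r fell to 0.36 without the 2 rats farthest from the median of Eng, so that the relation rested on those rats. With the strain means removed, r of Eng with Des was 0.84 (exact permutation within strains, p = 0.0312, adjusted p = 0.464). Acta2 and Tagln had r = 0.77 and rho = 0.52 (exact permutation p = 0.0229 and 0.197, adjusted p = 0.261 and 0.556), with r = 0.37 without the 2 rats farthest in Acta2, on which it thus rested, 0.056 without SHR rats 3 and 4, and 0.71 with the strain means removed. Pecam1 and Pdgfrb had r = 0.78 and rho = 0.69 (exact permutation p = 0.0290 and 0.0694, adjusted p = 0.261 and 0.556), with r = 0.45 without the 2 rats farthest in Pecam1, on which it thus rested, and 0.79 with the strain means removed.

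The relation between contractile genes depended on the rats included. Tagln and Cnn1 had r = -0.26 and rho = -0.10 over the 8 rats (exact permutation p = 0.508 and 0.840, adjusted p = 0.831 and 1.0). Without the 2 rats farthest from the median of Tagln, which were SHR rats 3 and 4, r was 0.90, and with the strain means removed it was 0.12. Over the 10 mural pairs the median r was 0.51 without these 2 rats. Cnn1 enters these values with few reads. Within the endothelial class the lowest value was that of Pecam1 with Flt1, at r = -0.40 and rho = -0.50 (exact permutation p = 0.344 and 0.216, adjusted p = 0.695 and 0.556), which turned to 0.19 with the strain means removed. Pecam1 with Kdr had r = 0.14 and rho = -0.05 as measured (exact permutation p = 0.753 and 0.935, adjusted p = 0.938 and 1.0), and 0.77 with the strain means removed (exact permutation within strains, p = 0.0312, adjusted p = 0.464).

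**Figure D3:**
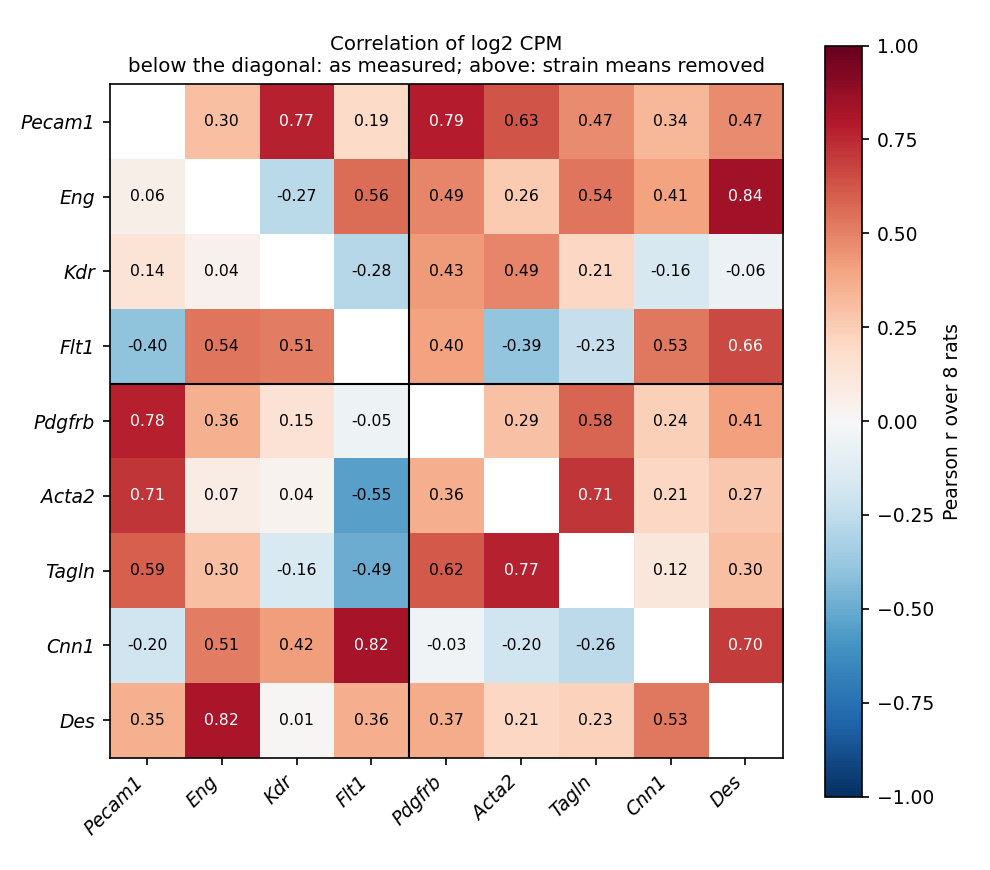
Pearson r of log2 library-scaled counts (CPM) over the 8 rats for each pair of members, as measured below the diagonal and with the strain means removed above it; black lines part the 4 endothelial genes from the 5 mural genes. Flt1 is negative with Acta2 (-0.55) and Tagln (-0.49) and positive with Cnn1 (0.82), and with the strain means removed the 10 mural pairs are all above 0. The negative values of Flt1 had exact permutation p of 0.160 for Acta2 and 0.221 for Tagln (adjusted p = 0.612 for both). They turned on SHR rats 3 and 4, without which r of Flt1 was 0.016 with Acta2, 0.67 with Tagln and 0.91 with Cnn1.

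As a summary of each rat, the log2 values of a class were centred by gene and averaged. The endothelial mean was -0.42, -0.32, 0.11 and -0.18 in the Wistar rats and 0.53, 0.06, 0.15 and 0.07 in the SHR. The mural mean was -0.48, 0.20, 0.45 and 0.24 in the Wistar rats and 0.75, -0.03, -0.84 and -0.29 in the SHR. Wistar rat 1 was lowest for the endothelial genes, SHR rat 1 was highest for both classes, and SHR rat 3 was lowest for the mural genes while above 0 for the endothelial ones.

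The members were then set beside 23 further endothelial genes, of which 18 had a tested record. Of these 18 records 0 passed edgeR's quasi-likelihood test in either direction, and their median log2 fold change was 0.12. Those with the highest normalised counts, which are not corrected for length, were Cdh5, the cadherin of endothelial junctions, at 1349 ± 198 normalised counts in Wistar and 1040 ± 369 in SHR, Ramp2, a partner of the adrenomedullin receptor, at 926 ± 63.6 and 1266 ± 241, and Vwf, the von Willebrand factor of endothelial granules, at 536 ± 120 and 548 ± 146. Log2 fold changes were -0.37 for Cdh5, 0.45 for Ramp2 and 0.03 for Vwf (edgeR's quasi-likelihood test, Benjamini-Hochberg adjusted p = 0.428, 0.145 and 0.959). The list summed to 5382 to 7142 normalised counts in Wistar and 5417 to 8771 in SHR, with SHR rat 1 the highest of the 8 rats. Over the 18 records the median r with a member was 0.24 for Pecam1, 0.23 for Kdr, 0.35 for Flt1 and 0.51 for Eng. Among the 18 themselves the median r was 0.28 over 153 pairs.

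A list of 20 further mural genes had 31 tested records, of which 2 passed edgeR's quasi-likelihood test higher and 4 lower in SHR. All 6 were records of Tpm1, a tropomyosin that is spliced differently in muscle and other cells. Record NM_001034069 had 1764 ± 337 and 189 ± 169 normalised counts in Wistar and SHR and record NM_001034073 734 ± 277 and 1888 ± 391 (log2 fold changes -3.24 and 1.36, edgeR's quasi-likelihood test, Benjamini-Hochberg adjusted p = 0.0062 and 0.0242). The call of NM_001034073 was lost without Wistar rat 1 or 3 or SHR rat 2 or 4 (adjusted p 0.0502 to 0.0753), and that of NM_001034070 without Wistar rat 1, 2 or 3 or SHR rat 1, 2 or 4 (0.0528 to 0.124). Without SHR rats 3 and 4 together these calls and those of NM_001034068 and NM_001034069 were lost (0.0524 to 0.0698). The calls of NM_001301736 (1995 ± 308 normalised counts in Wistar and 689 ± 181 in SHR) and NM_001034072 (10.2 ± 20.4 and 1003 ± 374) were kept in these fits. The 12 records of Tpm1 in the files overlap in sequence, so that the split of reads between them is uncertain, and their sum, 4956 ± 748 in Wistar and 4114 ± 677 in SHR, did not pass (log2 fold change -0.26, adjusted p = 0.393). The single records with the highest normalised counts, which are not corrected for length, were those of Mcam, an adhesion molecule that neural crest derived cells also carry, and that of Cald1, an actin-binding protein of contractile cells. Of the 2 Mcam records, NM_001034009 had 18789 ± 2740 normalised counts in the controls and 17502 ± 2404 in SHR (log2 fold change -0.10, adjusted p = 0.729), and NM_023983 had 4144 ± 278 and 4264 ± 534 (log2 fold change 0.04, adjusted p = 0.880). For Cald1 the counts were 3115 ± 372 and 2514 ± 579, with a log2 fold change of -0.31 (adjusted p = 0.369). Myl9, the regulatory light chain of smooth muscle myosin, had the highest correlation with Tagln of these 31 records (r = 0.99, and 0.87 without the 2 rats farthest in Tagln). It was chosen after its values were seen. Its normalised counts were 1206, 1661, 1832 and 1658 in the Wistar rats and 1779, 1535, 586 and 851 in the SHR, again with SHR rats 3 and 4 lowest. Over the 31 records the median r with Tagln was 0.09, with 9 records at 0.5 or more and a lowest value of -0.90. With the other mural members the median r was 0.19 for Acta2, 0.13 for Cnn1, 0.35 for Des and 0.19 for Pdgfrb. Among the 31 themselves it was 0.09 over 465 pairs.

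Over all 8 rats, Tagln and Acta2 also varied with the markers of cells other than the vessel wall. For Tagln, r was at least 0.5 with 9 of 9 macrophage records (median 0.87) and with 7 of 9 fibroblast records (median 0.72). These values rested on SHR rats 3 and 4, in which Tagln and the sums over both lists were lowest. Not every record of the lists was low there, and Fbln1, at 1450 in SHR rat 3, was not. Without these 2 rats the counts were 0 of 9 (median 0.083) and 1 of 9 (median 0.086). For Acta2, r was at least 0.5 with 9 of 9 macrophage records (median 0.77) and 7 of 9 fibroblast records (median 0.83), and without SHR rats 3 and 4 with 2 of 9 (median 0.37) and 6 of 9 (median 0.66). For Pecam1 the counts were 7 of 9 (median 0.60) and 7 of 9 (median 0.79), and 1 of 9 (median 0.18) and 5 of 9 (median 0.74) without the 2 rats. Pdgfrb had 5 of 9 (median 0.55) and 6 of 9 (median 0.57), and 1 of 9 (median 0.22) and 1 of 9 (median 0.40) without them. Kdr had 0 of 9 (median 0.12) and 0 of 9 (median 0.05), and 8 of 9 (median 0.80) and 3 of 9 (median 0.20) without them. Eng had 1 of 9 (median 0.30) and 1 of 9 (median 0.21), and 4 of 9 (median 0.39) and 2 of 9 (median 0.28) without them. Des had 1 of 9 (median 0.14) and 3 of 9 (median 0.36), and 2 of 9 (median 0.20) and 6 of 9 (median 0.57) without them. Among all pairs of records tested, 14.3% reached 0.5 over the 8 rats. Flt1 and Cnn1 had a median r over the macrophage records of -0.32 and -0.26, which turned to 0.68 and 0.46 without SHR rats 3 and 4, and over the fibroblast records of -0.40 and -0.24, which turned to 0.22 and 0.24. The macrophage records correlated among themselves with a median r of 0.90 over the 8 rats. These are descriptions over the same rats, and the part of macrophage or fibroblast content in the vascular values was not tested.

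**Figure D4:**
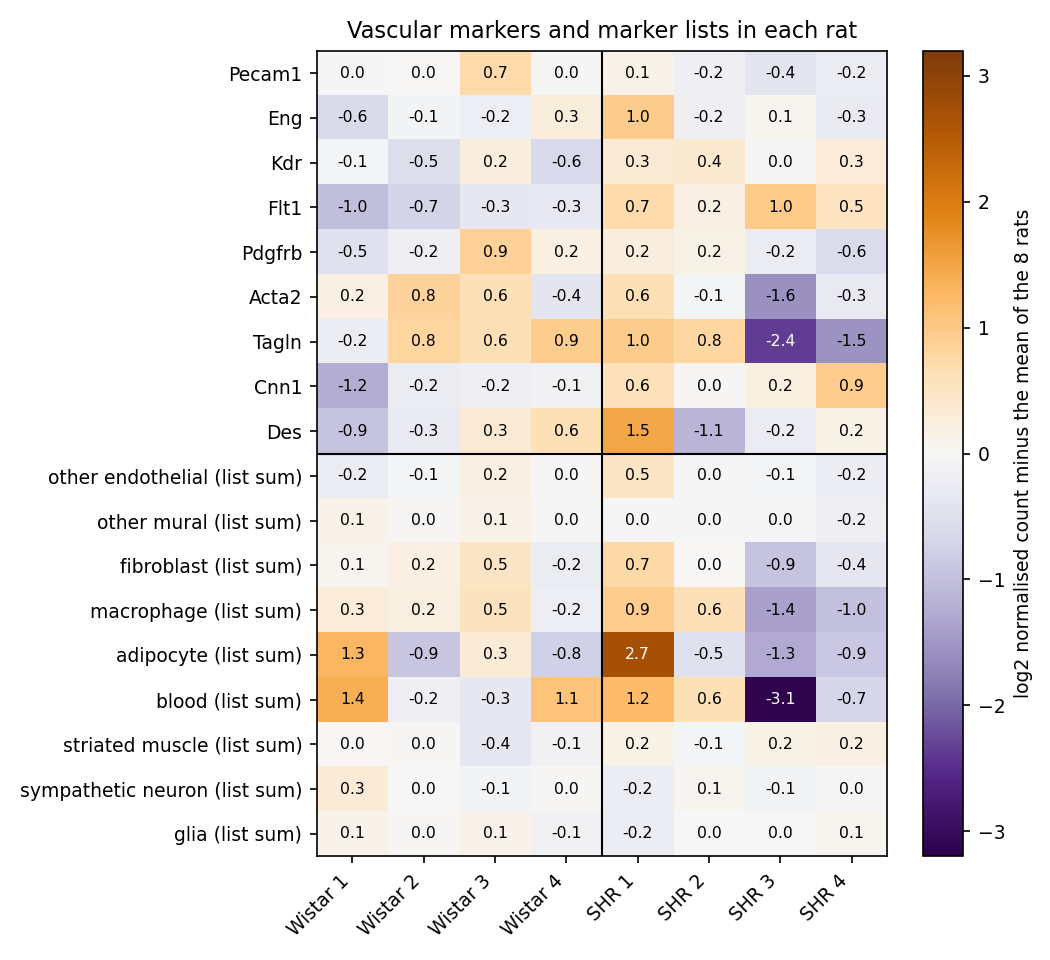
Log2 normalised count minus the mean of the 8 rats (colour and number) for each member (upper block) and for the summed counts of each marker list (lower block), with the Wistar rats left of the line and the SHR right of it. In SHR rat 3 the values of Tagln (-2.4), Acta2 (-1.6) and the blood (-3.1) and macrophage (-1.4) lists are low while that of Flt1 (1.0) is high. Mcam supplies most of the other mural sum and Acta1 most of the striated muscle sum.

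Sums over the other lists were read beside the members. The adipocyte list summed to 3960 in SHR rat 1, the rat highest for Eng and Des, against 248 to 439 in the other SHR and 319 to 1482 in Wistar. The glial list summed to 113420 to 132590 in Wistar and 105780 to 126210 in SHR, and the neuronal list to 623980 to 812500 and 562820 to 701630. No record of the fibroblast, macrophage, blood, adipocyte, striated muscle or glial lists passed edgeR's quasi-likelihood test, and 2 records of Ddc, an enzyme of catecholamine synthesis, passed lower in SHR among the neuronal genes. Their part in the vascular values was not tested.

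Ligands, co-receptors and transcription factors of the VEGF, angiopoietin, PDGF and TGF-beta pathways formed a list of 27 genes, with 23 tested records of 21 genes. Of these records 1 passed edgeR's quasi-likelihood test higher in SHR and 0 lower, and the median log2 fold change was 0.10. The record that passed was Pdgfb, the ligand of the receptor encoded by Pdgfrb. Its normalised counts were 104, 124, 127 and 117 in the Wistar rats and 334, 289, 261 and 232 in the SHR, with no overlap. Pdgfb had a log2 fold change of 1.24 with a standard error of 0.169 (edgeR's quasi-likelihood test, Benjamini-Hochberg adjusted p = 0.0034). Vegfb, a ligand of Flt1, had 413, 614, 580 and 722 in the Wistar rats and 1127, 729, 1193 and 939 in the SHR. Its strains did not overlap either, and its log2 fold change of 0.78 missed the threshold of edgeR's quasi-likelihood test (Benjamini-Hochberg adjusted p = 0.0757). Nrp1, a co-receptor of Kdr that neurons also carry, had 1887 ± 320 in Wistar and 1373 ± 235 in SHR (log2 fold change -0.46, adjusted p = 0.182). Angpt2, a ligand of the endothelial receptor Tek, had 3855 ± 542 and 3691 ± 338 (log2 fold change -0.06, adjusted p = 0.826). Bmp10, a ligand that binds endoglin, was at 0 in all 8 rats.

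Genes with a pattern like that of the class means were taken from 11263 records with a mean normalised count of at least 50, other than the members. The 5 most like the endothelial mean over the 8 rats were Tmod1 (r = 0.98), RT1-CE11 (0.97), Rell2 (0.97), Dcxr (0.93) and Tgif2 (0.93), all with their highest value in SHR rat 1. RT1-CE11 belongs to the class I histocompatibility family, whose near-identical members and strain differences in sequence make its counts uncertain. The 5 most like the mural mean were Fgl2 (0.99), Tgfbi (0.98), Fkbp9 (0.97), Sspn (0.97) and Igfbp6 (0.96), all lowest in SHR rat 3 and highest in SHR rat 1. These were the highest values among many records, and members themselves had r from 0.11 (Pecam1) to 0.83 (Flt1) with the endothelial mean, and from 0.18 (Cnn1) to 0.84 (Tagln) with the mural mean, means of which they are part. Of the 10 genes, 0 passed edgeR's quasi-likelihood test between the strains, with Benjamini-Hochberg adjusted p from 0.184 for Tmod1 to 0.9747 for Igfbp6.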

How the data were processed

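RNA of 8 right stellate ganglia, 4 per strain, was sequenced as paired reads. The authors quantified reads with Salmon 0.8.2 against RefSeq mRNA records of the rn6 build, with corrections for GC content and position, and the deposited tables give each record's estimated count, its TPM and its length. The labels name a stranded TruSeq kit, the study's methods a SMARTer amplification. Salmon divides reads shared by similar records, so values of single records of 1 gene are uncertain.

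Estimated counts were rounded, filtered with filterByExpr, scaled by TMM and tested over all 13659 records with edgeR 4.0.16 (quasi-likelihood, strain only, R 4.3.3), with Benjamini-Hochberg adjustment at 0.05. Normalised counts are counts divided by the effective (TMM) library size and multiplied by its mean over the 8 libraries. TPM differences used log2(TPM + 0.1) and correlations log2 TMM-scaled CPM (prior count 2), with exact permutation tests (NumPy, two-sided). The scripts were tested on simulated data with 200 changed records. Depth was 25820299 to 35509074 estimated counts per library, which leaves records such as Cnn1 with few reads. DESeq2 1.42.0 gave alternatives.

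The members, marker lists and tests were chosen with earlier results of these data known. Named besides the members were, from each list, genes past the threshold (up to 5) and the 3 of highest count, and the 5 records most like each class mean. Of 18314 records, 17360 were matched to symbols through a RefSeq table of the GRCr8 assembly, as were 125 of 135 listed genes. Promoter stretches of Pecam1, Tagln and Pdgfrb were not used here. Each library came from its own rat. Between libraries of a strain the lowest ratio of chi-square to degrees of freedom was 23.7, so that none was a duplicate.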

Additional observations from a re-analysis of the deposited data

Results flagged for a closer look

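Among 60 groups of 4 rats examined (the members' normalised counts and TPM, the second Flt1 record, the share between the Flt1 records and the list sums), 8 had 1 rat far from the other 3, where chance gives about 3. Several of these are the same rat on different scales.

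Pecam1 had a normalised count of 1259 in Wistar rat 3, with the other Wistar rats at 746 to 783, and a TPM of 15.4, with the others at 8.32 to 9.40. Its TPM in SHR rat 1 was 9.545 (others 7.47 to 7.62). Cnn1 had a normalised count of 4.80 in Wistar rat 1, with the others at 9.58 to 10.4, and a TPM of 0.124, with the others at 0.268 to 0.284; the count behind it was 5 reads. The further mural list summed to 31781 in SHR rat 4 (others 34765 to 35188). Most of this sum was Mcam, whose more abundant record had 16692 in SHR rat 4. The striated muscle list summed to 2473 in SHR rat 2 (others 2892 to 2977). The adipocyte list summed to 3960 in SHR rat 1 (others 248 to 439). No cause of these values was tested.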

How the results depend on the processing

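The count of members past the threshold, 1 in the results above, was 0 with the replicate number as a block and 0 without SHR rats 3 and 4 (chosen after seeing the data), and 0 to 1 when single rats were left out; the count higher in SHR took the same values. Same-numbered rats did not deviate together (correlations -0.29 to -0.04, with a mean of -0.15, against 0.05 for other numbers). These values gave no sign of a pairing by number but cannot exclude one, and the labels state none. With the block, Flt1 had a log2 fold change of 1.19 (edgeR adjusted p = 0.128), and without SHR rats 3 and 4 1.05 (adjusted p = 0.156). With single rats left out it ranged from 1.06 to 1.31 (adjusted p 0.0331 to 0.1102). Flt1 passed under DESeq2 (adjusted p = 0.00087), length offsets, DESeq2 size factors, the newer edgeR fit, other filters and sums over genes.

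Signs turned for Tagln (0.29) and Pdgfrb (0.015) without SHR rats 3 and 4, for Pdgfrb without Wistar rat 3 (0.055) and for Des without SHR rat 1 (-0.37). Leaving out single rats gave -0.37 to 0.60 for Des and -0.44 to 0.055 for Pdgfrb. In log2 TPM the ranges were 0.31 to 0.58 for Kdr (exact permutation p 0.0286 to 0.171), 0.83 to 1.13 for Flt1 (0.0286 to 0.0571), 0.46 to 0.78 for Cnn1 (0.0286 to 0.0571), -0.26 to 0.48 for Des and -0.43 to 0.037 for Pdgfrb; Des was -0.12 without Wistar rat 1. Kdr reached p = 0.0286 without Wistar rat 3, Flt1 rose to 0.0571 without Wistar rat 1 or 2, and Cnn1 to 0.0571 without any 1 of the 4 Wistar rats, all by the exact permutation test. With the strain means removed, the median correlation was 0.24 within the endothelial class and 0.45 between classes, and without SHR rats 3 and 4 it was 0.20 within the endothelial and 0.51 within the mural class. Leaving out single rats gave medians of -0.036 to 0.23 (endothelial), 0.17 to 0.41 (mural) and 0.10 to 0.37 (between). Cnn1 was dropped by the filter of 10 counts in every sample. Over all records, 389 were called, against 782 by DESeq2, 852 by DESeq2 with length offsets, 132 with the block and 237 to 454 with single rats left out; of the calls, 40.6% were higher in SHR, and 38.7% to 49.3% with single rats left out. With the block Pdgfb had an adjusted p of 0.0524, and 3 of the 6 Tpm1 calls were lost; Pdgfb passed in the other alternatives run for it, with 1 rat left out at 0.0069 to 0.0184. No other call on a member changed. The cause was not tested. Depth limits Cnn1 most.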

Other observations

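Cd34, a surface protein of endothelial cells, of fibroblasts and of blood progenitors, was singled out after its values were seen. Its normalised counts were 50.9, 30.9, 83.2 and 32.3 in the Wistar rats and 455, 188, 97.8 and 110.0 in the SHR, with no overlap and with SHR rat 1 the highest. The log2 fold change of 2.10 (standard error 0.531) did not pass edgeR's quasi-likelihood test (Benjamini-Hochberg adjusted p = 0.0744). Podxl, a sialomucin on the luminal face of endothelial cells, was chosen in the same way. It had 156, 131, 176 and 169 in the Wistar rats and 211, 221, 197 and 212 in the SHR, again without overlap, and was 0.41 higher on the log2 scale (standard error 0.156, Benjamini-Hochberg adjusted p = 0.226 in edgeR's quasi-likelihood test). Among all records tested, 10.6% had no overlap between the strains. Both genes come from the 18 further endothelial records, of which 12 had a log2 fold change above 0. Cldn5 (-0.63) and Clec14a (-0.50) were among those below 0.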
